A study of Mus musculus with 11 samples.

Results

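The genes examined here were 8 neuropeptide precursor genes of the mouse, Penk, Pdyn, Tac1, Tac2, Adcyap1, Cartpt, Crh and Cort, chosen by symbol from the 17118 genes of the deposited table. All 8 were found and all 8 passed the filter on low counts. Sst and Npy, which encode the related interneuron peptides somatostatin and neuropeptide Y, appear only where a result turns on them. The AC-T animals were female C57/BL6J mice labelled 12 weeks old, and AC-T is a breast cancer regimen, given here intraperitoneally once a week. The first 4 injections combined doxorubicin at 2 mg/kg and cyclophosphamide at 50 mg/kg, and the last 4 were paclitaxel at 5 mg/kg. Control mice of the same sex, strain and age received 8 weekly injections of 0.9% saline. RNA was sequenced from 0.2 mm punches of hippocampus of frozen brains, at a time point labelled 1 month. Each library came from 1 mouse, named by its number: AC-T 501, 502, 503, 600 and 602 (n = 5), and saline 201, 202, 203, 300, 301 and 302 (n = 6).

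Neuropeptides are cut from larger precursor proteins by convertases inside dense-core granules, and are released to act mostly on G-protein-coupled receptors. In the hippocampus several of them mark classes of GABA-releasing interneurons, while dynorphin is known from the mossy fibres of dentate granule neurons. Several of the same genes are more abundant outside the hippocampus: Penk in the striatum, Tac1 and Tac2 in the medial habenula, and Crh in the hypothalamus.

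Library totals ran from 23389834 to 32121429 counts. Markers of hippocampal fields were present in every library, with dentate granule markers summing to 280 to 502 CPM (counts scaled to the TMM-normalised library size) after AC-T and 355 to 539 CPM after saline. The 8 CA1 markers summed to 496 to 650 CPM after AC-T and 136 to 421 CPM after saline, without overlap, and Mpped1 alone among them passed (edgeR adjusted p = 0.0255). Markers of regions outside the hippocampus were detected as well. The 15 thalamic markers summed to 725 to 1070 CPM after AC-T and 1395 to 2095 CPM after saline, and their mean log2 CPM was 1.05 lower after AC-T. The 12 neocortical markers summed to 274 to 327 CPM after AC-T and 187 to 271 CPM after saline. Their mean log2 CPM overlapped, at 3.70 to 4.26 after AC-T and 2.72 to 4.05 after saline. Of the 12, 4 passed as higher, 7 did not pass and Rorb passed as lower (0.670 of saline, edgeR adjusted p = 0.0181). The first digit of the mouse number, called the series below, divides each treatment (5 and 6 for AC-T, 2 and 3 for saline). What this digit stands for is not stated, and no series holds both treatments, so treatment and series cannot be told apart. In saline 300 the gene Xist, which is active in female cells, was listed at 0, although all mice are labelled female.

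Between AC-T and saline mice, 1 of the 8 precursor genes passed the test. Cort (ENSMUSG00000028971), which encodes cortistatin, a peptide related to somatostatin, rose 1.71-fold, while Penk, Pdyn, Tac1, Tac2, Adcyap1, Cartpt and Crh did not pass. The test was edgeR's quasi-likelihood F test over 15353 genes, with Benjamini-Hochberg adjusted p under 0.05 as the threshold. Of all genes tested, 8.47% passed in either direction, 4.89% passed as higher and 3.58% as lower, so 1 of 8 is near the background share. The split over all genes was 751 higher and 550 lower, and depended on scaling: 593 and 663 with upper-quartile factors, and 487 and 548 with library totals. The median log2 fold change was 0.03 over the 8 genes and −0.003 over all genes tested. Bulk tissue cannot tell fewer cells of a type from less RNA per cell, for Cort or for any gene below.

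**Figure D1:**
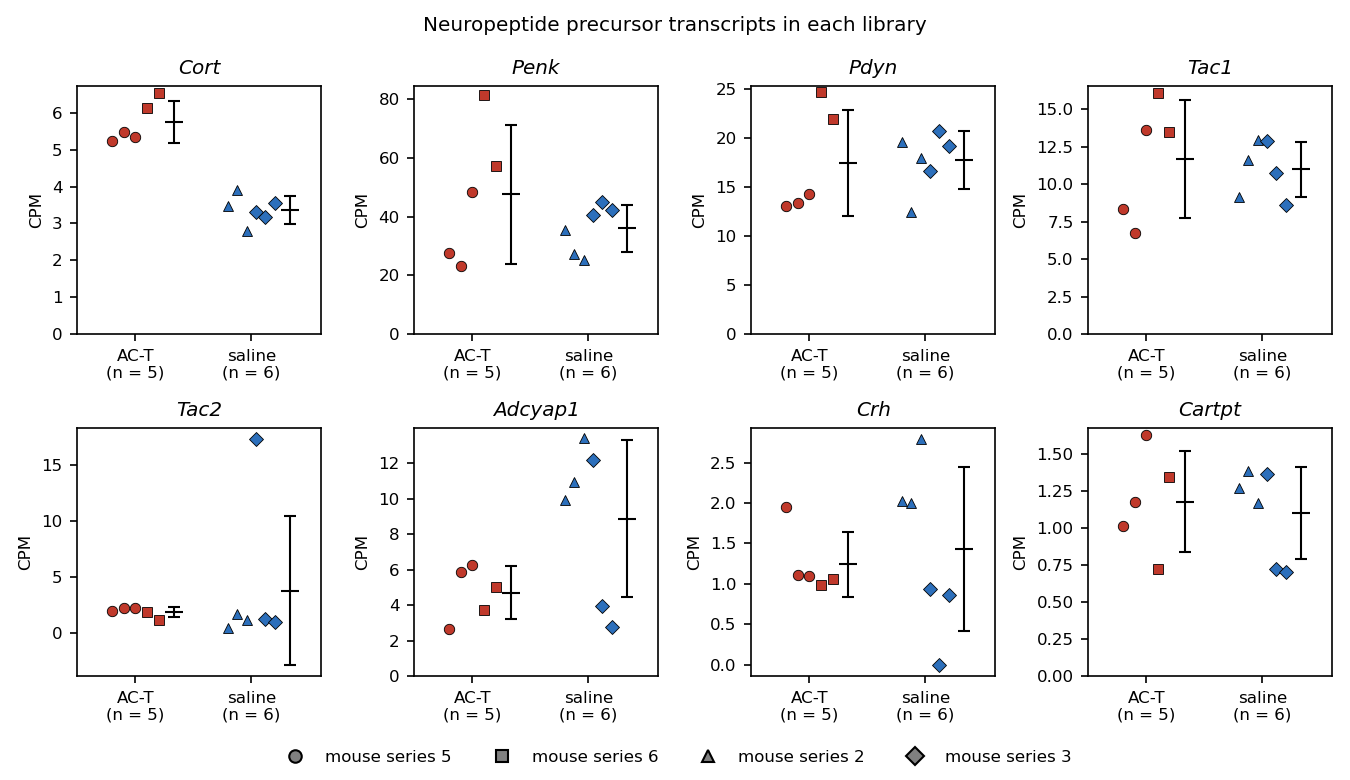
CPM of each precursor gene in each of the 5 AC-T and 6 saline libraries, with marker shape for the mouse series and the bar for the mean ± SD of a group. The groups are apart for Cort and overlap for the other 7 genes, and saline 300 stands alone for Tac2 at 17.3 CPM.

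**Figure D2:**
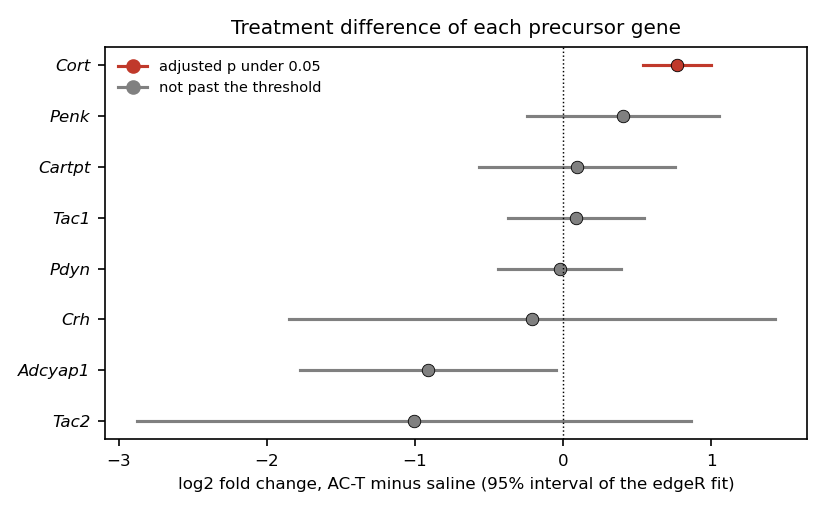
Log2 fold change (AC-T minus saline) of each precursor gene with the 95% interval of the edgeR fit, from 5 AC-T and 6 saline libraries. The interval of Cort, 0.54 to 1.00, lies above 0 and is the narrowest of the 8, and that of Tac2, −2.88 to 0.86, is the widest.

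Cortistatin binds somatostatin receptors and is made by a subset of cortical and hippocampal interneurons. Its transcript stood at 5.24, 5.47, 5.36, 6.13 and 6.54 CPM in AC-T 501, 502, 503, 600 and 602, against 3.47, 3.90, 2.79, 3.31, 3.18 and 3.56 CPM in saline 201, 202, 203, 300, 301 and 302. Every AC-T library was above every saline library, a separation seen for 7.52% of all genes tested. The means were 5.75 ± 0.560 CPM after AC-T (SD, n = 5) and 3.37 ± 0.375 CPM after saline (SD, n = 6). The log2 fold change was 0.77 ± 0.10 (SE; edgeR adjusted p = 0.00248). Leaving out any 1 library gave log2 fold changes of 0.72 to 0.82 and edgeR adjusted p values of 0.00412 to 0.0104. Against saline series 2 alone it was 0.76 (edgeR adjusted p = 0.0162) and against saline series 3 alone 0.78 (edgeR adjusted p = 0.0178). Neither series of a treatment differed from the other in Cort past the threshold (log2 differences of 0.24 ± 0.15 between AC-T series 6 and 5 and −0.01 ± 0.14 between saline series 3 and 2, SE).

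Sst was the gene most like Cort across the libraries. Likeness was taken as the mean absolute difference between log2 CPM profiles, each centred on its mean over the 11 libraries, among 14711 genes. For Sst this distance was 0.117 log2 units, against a median of 0.391 over all genes tested. Sez6, which encodes a neuronal membrane protein, came next at 0.127. Sst stood at 124, 143, 117, 135 and 143 CPM in AC-T 501, 502, 503, 600 and 602, against 72.6, 85.1, 79.5, 87.5, 79.6 and 86.2 CPM in saline 201, 202, 203, 300, 301 and 302. As for Cort, no saline library reached the lowest AC-T library. Cort amounted to 4.36 ± 0.327 CPM per 100 CPM of Sst after AC-T (SD, n = 5; range 3.83 to 4.59) and to 4.13 ± 0.478 after saline (SD, n = 6; range 3.51 to 4.77). The proportion overlapped between the groups, which follows in part from how Sst was chosen, as the gene nearest to Cort over the same libraries.

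**Figure D3:**
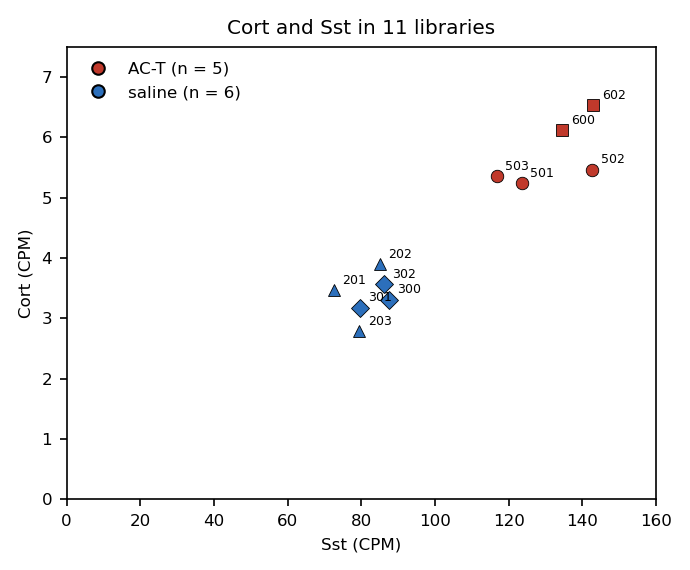
Cort against Sst in CPM, 1 point per library labelled with the mouse number, AC-T in red and saline in blue. The 5 AC-T libraries lie at 5.24 CPM of Cort or more and the 6 saline libraries at 3.90 CPM or less, and the Cort to Sst proportions of the groups overlap.

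Because Cort and Sst moved together, the 250 bases before their start sites are shown, read on the minus strand 5′ to 3′ from RefSeq, build GRCm38.p6, at chr4:149126764-149127013 for Cort and chr16:23890845-23891094 for Sst. Capitals mark the cyclic AMP response element TGACGTCA, which CREB binds, and its shorter form TGACG or, on the other strand, CGTCA.
Cort: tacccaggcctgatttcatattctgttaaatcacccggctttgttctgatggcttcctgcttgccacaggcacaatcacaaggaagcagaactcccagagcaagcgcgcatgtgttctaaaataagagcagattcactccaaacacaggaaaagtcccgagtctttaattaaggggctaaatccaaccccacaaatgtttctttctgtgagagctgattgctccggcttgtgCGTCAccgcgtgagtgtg
Sst: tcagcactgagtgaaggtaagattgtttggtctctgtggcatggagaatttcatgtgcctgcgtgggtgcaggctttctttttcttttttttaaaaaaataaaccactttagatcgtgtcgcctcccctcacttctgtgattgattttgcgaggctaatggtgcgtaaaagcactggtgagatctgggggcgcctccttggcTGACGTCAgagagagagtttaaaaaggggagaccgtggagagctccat
The Sst window holds the full element, starting 48 bases before the start site, and its capitals are the overlapping TGACG and CGTCA of that 1 element. The Cort window holds CGTCA alone, starting 18 bases before the start site. Among 32851 windows of this length, 1.55% hold TGACGTCA and 17.8% hold TGACG on either strand. Of the precursor genes, 6 matched an entry (not Penk and Crh), and among them the full element was found for Cartpt, starting 112 bases before its start site. TGACG in either direction was found for Tac1 and Adcyap1 as well, and for neither Pdyn nor Tac2. A match to these letters is a description of the window and not of binding.

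Of 12 marker lists, those of somatostatin-lineage and of CGE-lineage (caudal ganglionic eminence) interneurons were nearest to Cort. Their median distances were 0.309 and 0.369 log2 units, against 0.391 over all genes. The CGE-lineage list was split: of 10 genes tested, 2 passed as higher and 2 as lower. The CA1, neocortical and thalamic lists were farther by median, at 0.428, 0.529 and 0.847. The nearest single gene of the neocortical list lay at 0.152, nearer than that of the CGE-lineage list at 0.186. The thalamic markers fell where Cort rose. The thalamic marker score (mean log2 CPM) was 5.18 ± 0.270 after AC-T and 6.23 ± 0.282 after saline (SD, n = 5 and 6), with the saline libraries of series 2 above those of series 3. The score of 11 markers of somatostatin-lineage interneurons, which hold none of the 8 precursor genes, was 5.73 ± 0.102 after AC-T and 5.47 ± 0.0842 after saline, with ranges of 5.59 to 5.85 and 5.39 to 5.60 that overlapped at their ends. Of these markers Sst, Npy, Crhbp and Lhx6 rose, Pvalb fell to 0.639 of saline (edgeR adjusted p = 0.0391), and the other 6 did not pass. The list is not limited to somatostatin cells. Pvalb marks another interneuron class, and Gad1, Gad2 and Slc32a1, among the 6, are shared by GABA-releasing neurons. With the thalamic score as a covariate Cort kept its fold change with a wider error (log2 0.77 ± 0.255, SE) and lost the call (edgeR adjusted p = 0.686), in a fit where 1 gene of all tested passed. With the interneuron score as a covariate it was 0.58 ± 0.19 (edgeR adjusted p = 0.157). That score holds Sst, singled out above as nearest to Cort, and its group ranges overlapped only at their ends. The fit with it therefore separates score from treatment poorly. The thalamic scores of the groups did not overlap, so the fit with that score can hardly tell score from treatment.

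Penk (ENSMUSG00000045573) encodes proenkephalin, the source of the enkephalins, which act on delta and mu opioid receptors. It stood at 27.5, 23.1, 48.5, 81.7 and 57.2 CPM in AC-T 501, 502, 503, 600 and 602, against 35.5, 27.3, 25.4, 40.6, 44.97 and 42.3 CPM in saline 201, 202, 203, 300, 301 and 302. The AC-T libraries held both the lowest and the highest values, and the groups overlapped. The fold change was 1.32 (log2 0.40 ± 0.30, SE; edgeR adjusted p = 0.446), with a 95% interval of 0.845 to 2.07-fold. Penk overlaps a gene on the opposite strand in GENCODE M21, and whether the counting used strand is not given in the sources used here. The differences between series were larger in size. Series 6 was 2.10-fold above series 5 within AC-T (log2 1.07 ± 0.28, SE; edgeR adjusted p = 0.181), and series 3 was 1.45-fold above series 2 within saline (log2 0.54 ± 0.26, SE; edgeR adjusted p = 0.277). Neither passed the threshold, and of all genes tested 0.117% and 1.03% passed in these comparisons. Without AC-T 503, the series 5 library with the highest Penk, AC-T 600 and 602 were set against 501 and 502 alone. That difference passed (log2 1.46, edgeR adjusted p = 0.0343), but leaving out the highest series 5 value raises it by construction. Without AC-T series 6 the treatment difference in log2 Penk was −0.12.

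The gene nearest to Penk in profile was Rgs9, at a distance of 0.135 log2 units against a median of 0.457 over all genes tested, and it was singled out after its values were seen. Rgs9 encodes a regulator of G-protein signalling that is abundant in medium spiny neurons of the striatum, as Penk is. Rgs9 stood at 12.0, 9.55, 16.4, 32.3 and 22.4 CPM in AC-T 501, 502, 503, 600 and 602, against 10.3, 8.45, 9.01, 15.7, 16.1 and 15.4 CPM in saline 201, 202, 203, 300, 301 and 302. Like Penk it was highest in AC-T 600 and 602 and higher in the saline libraries of series 3 than in those of series 2. Of 12 marker lists with at least 3 tested genes, the striatal list of 10 genes was nearest to Penk, with a median distance of 0.283 log2 units. The 11 striatal markers summed to 165 to 444 CPM after AC-T and 144 to 287 CPM after saline, and 0 of the 10 tested passed in edgeR, with Drd1, a dopamine receptor, having the smallest p (edgeR adjusted p = 0.242, and unadjusted 0.0693). Of the list, Isl1 and Gpr6 were listed at 0 in some libraries. The part of striatal tissue in the Penk values was not tested.

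**Figure D4:**
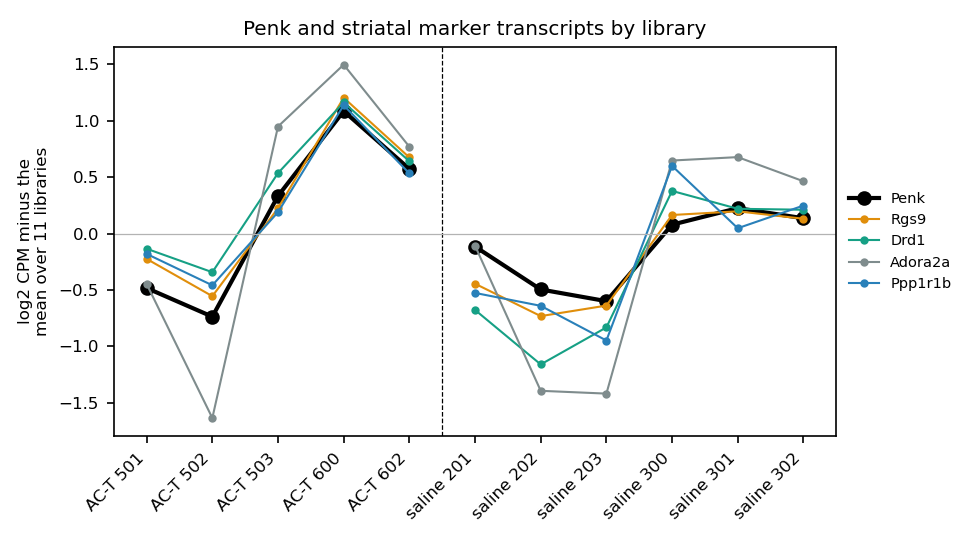
Log2 CPM of Penk and of 4 striatal marker genes in each library, each gene centred on its mean over the 11 libraries, with lines that only join values of 1 gene within a treatment. Penk and these 4 genes are highest in AC-T 600, and saline 300, 301 and 302 lie above saline 202 and 203 for each of them. The other striatal markers are not drawn, and not all share this pattern. Isl1 was listed at 0 in AC-T 600 and in saline 300 and 302, and stood at 1.74 CPM in saline 202. Rarb was higher in saline 202 (8.53 CPM) than in saline 300, 301 and 302 (7.88, 8.08 and 7.19 CPM).

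Pdyn (ENSMUSG00000027400) encodes prodynorphin, whose dynorphins act on the kappa opioid receptor. Its levels were 13.02, 13.3, 14.3, 24.7 and 21.9 CPM in AC-T 501, 502, 503, 600 and 602, against 19.6, 12.4, 17.9, 16.6, 20.8 and 19.2 CPM in saline 201, 202, 203, 300, 301 and 302. The 3 libraries of AC-T series 5 were below all saline libraries but saline 202, and those of series 6 were above all saline libraries. The treatment fold change was 0.984 (log2 −0.02 ± 0.19, SE; edgeR adjusted p = 0.957), with a 95% interval of 0.739 to 1.31-fold. Series 6 stood 1.72-fold above series 5 (log2 0.78 ± 0.16, SE; unadjusted p = 0.000858 and adjusted p = 0.145 in edgeR), and saline series 3 stood 1.13-fold above series 2 (edgeR adjusted p = 0.559). Against saline, series 6 alone gave a log2 fold change of 0.38 (edgeR adjusted p = 0.246). The 10 dentate granule markers, among them the transcription factor gene Prox1, lay at a median distance of 0.262 from Pdyn, against 0.303 over all genes; oligodendrocyte markers were as near, at 0.257. Of the dentate markers 0 passed in edgeR, where Plk5 and C1ql2 had unadjusted p values of 0.0344 and 0.0391 and adjusted p values of 0.160 and 0.173.

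Tac1 (ENSMUSG00000061762) encodes the precursor of substance P and neurokinin A. It stood at 8.35, 6.75, 13.6, 16.1 and 13.5 CPM in AC-T 501, 502, 503, 600 and 602, against 9.17, 11.7, 12.9, 12.9, 10.7 and 8.62 CPM in saline 201, 202, 203, 300, 301 and 302. The means were close, 11.7 ± 3.94 CPM after AC-T and 11.01 ± 1.84 CPM after saline (SD, n = 5 and 6), and the AC-T libraries were again the more spread. The fold change was 1.06, with a 95% interval of 0.772 to 1.46 (edgeR adjusted p = 0.849). AC-T series 6 stood 1.54-fold above series 5 (log2 0.62 ± 0.27, SE; edgeR adjusted p = 0.362), as Penk and Pdyn did in the same mice.

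Tac2 (ENSMUSG00000025400) encodes the precursor of neurokinin B, the preferred ligand of the receptor of Tacr3, and 1 library set its saline mean. Its levels were 1.95, 2.18, 2.26, 1.84 and 1.16 CPM in AC-T 501, 502, 503, 600 and 602, against 0.423, 1.66, 1.14, 17.3, 1.24 and 0.955 CPM in saline 201, 202, 203, 300, 301 and 302. Saline 300 was the highest library by a wide margin, at 480 counts against 10 to 68 in the others. With all libraries the log2 fold change was −1.01 ± 0.85 (SE; edgeR adjusted p = 0.517). Without saline 300 it was 0.78 (edgeR adjusted p = 0.219), with 1.88 ± 0.437 CPM after AC-T and 1.08 ± 0.451 CPM after saline (SD, n = 5 each). The direction for Tac2 therefore turned on a single library, and neither fit passed.

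Habenular markers were high in the same library. Pou4f1, a transcription factor gene of habenular neurons, was at 6.23 CPM in saline 300 and listed at 0 in the other 10 libraries. Gpr151, a receptor gene of the habenula, was at 18.8 CPM there and at 0 elsewhere, and the nicotinic receptor subunit genes Chrnb4 and Chrnb3 were at 5.94 and 3.64 CPM there and at 0 elsewhere. Chrna3, another subunit gene, was at 7.31 CPM there and at no more than 2.01 CPM elsewhere. The other 3 of the 8 markers were not particular to it: Nwd2 stood at 43.0 CPM in saline 300 and up to 33.3 CPM elsewhere, Htr5b at 4.03 and up to 4.71 CPM, and Slc5a7 at 0 and up to 4.83 CPM. All 8 summed to 23.7 to 38.0 CPM after AC-T and 21.7 to 89.0 CPM after saline. Of all genes in the data, 9, Tac2 among them, had at least 5 CPM in saline 300 and under 2.5 CPM in every other library, limits set after the values were seen; 4 of the 9 were on the habenular list. Tac1, which the medial habenula also expresses, was not raised in saline 300 beyond the other libraries (12.9 CPM, and 12.9 CPM in saline 203). The part of habenular tissue in the Tac2 value was not tested. By the likeness measure no gene followed Tac2 closely: the nearest were Gm28438, a predicted gene, at 0.567 and Nt5dc1 at 0.578, while Tac2 itself deviated from its own mean by 0.776 on average.

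**Figure D5:**
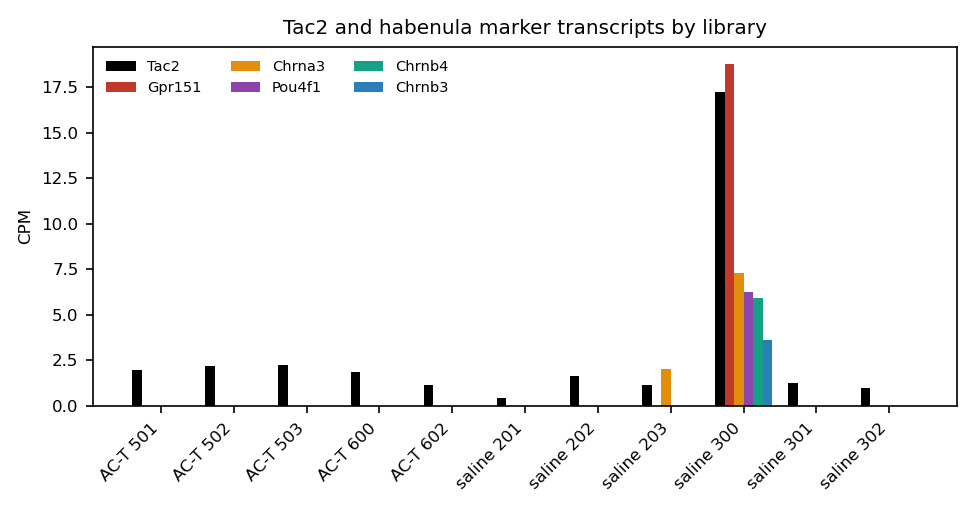
CPM of Tac2 (black) and of 5 habenular marker genes in each library, as bars from 0. Saline 300 holds 17.3 CPM of Tac2 and 18.8 CPM of Gpr151, and the markers are listed at 0 in the other libraries except Chrna3 in saline 203.

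Adcyap1 (ENSMUSG00000024256) encodes the peptide PACAP, which acts on the receptor of Adcyap1r1 and raises cyclic AMP. It stood at 2.68, 5.85, 6.29, 3.75 and 5.00 CPM in AC-T 501, 502, 503, 600 and 602, against 9.93, 10.96, 13.5, 12.2, 3.97 and 2.77 CPM in saline 201, 202, 203, 300, 301 and 302. Saline fell into 4 libraries above every AC-T library and 2, saline 301 and 302, within the AC-T range. The fold change was 0.532 (log2 −0.91 ± 0.40, SE; 95% interval 0.292 to 0.968-fold), with an unadjusted p of 0.0406 and an adjusted p of 0.177 in edgeR. An unadjusted p under 0.05 was found for 24.9% of all genes tested. Against saline series 2 alone Adcyap1 fell by 1.29 on the log2 scale and passed (edgeR adjusted p = 0.0178), and against saline series 3 alone it stood at −0.42 (edgeR adjusted p = 0.655). The saline series differed by −0.87 ± 0.49 (series 3 minus 2, SE; edgeR adjusted p = 0.362). The thalamic list was the nearest of 12 marker lists to Adcyap1 (median distance 0.615, and 0.711 over all genes), and adjusting for the thalamic score gave a log2 fold change of −0.38 (edgeR adjusted p = 0.949), while adjusting for the interneuron score gave −2.02 (edgeR adjusted p = 0.177). As for Cort, the fit with the thalamic score can hardly tell score from treatment, and the fit with the interneuron score separates them poorly.

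The single genes nearest to Adcyap1, chosen after their values were seen, were Cbln2 (distance 0.250), a cerebellin of synapse formation, and Resp18 (0.296), a protein of endocrine granules. Cbln2 stood at 17.3, 29.5, 30.2, 33.1, 11.8 and 7.70 CPM in saline 201, 202, 203, 300, 301 and 302, low in the same saline libraries as Adcyap1. After AC-T it stood at 10.8 to 15.6 CPM, with means of 12.7 CPM after AC-T and 21.6 CPM after saline (edgeR adjusted p = 0.184).

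Crh (ENSMUSG00000049796) encodes corticotropin-releasing hormone, a stress peptide that hippocampal interneurons also make. It stood at 1.95, 1.11, 1.10, 0.988 and 1.06 CPM in AC-T 501, 502, 503, 600 and 602, against 2.03, 2.01, 2.79, 0.936, 0 and 0.859 CPM in saline 201, 202, 203, 300, 301 and 302. Saline 301 is listed at 0, which may stand for a value under a limit, since the median of the lowest values above 0 was 23 counts over the 2825 genes with some zeros. The 3 libraries of saline series 2 and AC-T 501 were the highest. The log2 fold change was −0.21 ± 0.75 (SE; edgeR adjusted p = 0.904), a fit that takes the 0 as a count. The saline series differed by −1.92 ± 0.94 (series 3 minus 2, SE; edgeR adjusted p = 0.291).

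Cartpt (ENSMUSG00000021647) encodes the precursor of CART peptides and was the other gene near the bottom of the scale. It stood at 1.01, 1.18, 1.63, 0.725 and 1.35 CPM in AC-T 501, 502, 503, 600 and 602, against 1.27, 1.39, 1.17, 1.37, 0.725 and 0.700 CPM in saline 201, 202, 203, 300, 301 and 302. The groups covered nearly the same range. The fold change was 1.07, with a 95% interval of 0.675 to 1.69 (edgeR adjusted p = 0.889), at 21 to 49 counts per library. Fold changes inside that interval remain compatible with these libraries.

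Levels can be compared between genes only per length, here as CPM per kilobase of the longest coding transcript in GENCODE M21. Penk was the most abundant, at 32.8 ± 16.4 after AC-T and 24.8 ± 5.61 after saline (SD, n = 5 and 6). Its lowest library lay above the highest of every other precursor gene except saline 300 for Tac2 (20.3), measured against Penk values of 15.9 to 56.4 after AC-T and 17.5 to 31.0 after saline. Next after AC-T were Tac1 (9.48 ± 3.20), Cort (8.49 ± 0.827) and Pdyn (7.31 ± 2.28), whose ranges overlapped. After saline they were Tac1 (8.95 ± 1.5), Pdyn (7.44 ± 1.25) and Cort (4.97 ± 0.554), and the ranges of Cort and Pdyn overlapped in both groups. Tac2 (2.21 ± 0.513) and Adcyap1 (1.39 ± 0.440) followed after AC-T, against 4.44 ± 7.77 and 2.62 ± 1.31 after saline. Cartpt and Crh were lowest, at 0.951 ± 0.275 and 0.941 ± 0.303 after AC-T and 0.891 ± 0.252 and 1.09 ± 0.769 after saline, and overlapped in range. With the median transcript length in place of the longest, Penk, Tac1 and Pdyn ranked 1, 2 and 3 in both groups, and Cort ranked 4 after AC-T and 5 after saline.

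Of 44 other neuropeptide precursor genes listed, 25 were found and 19 were tested, of which 2 rose and 1 fell, where 4.89% of all genes tested rose and 3.58% fell. Besides Sst, Npy rose 1.48-fold (35.6 ± 6.12 CPM after AC-T and 24.1 ± 3.23 CPM after saline, SD, n = 5 and 6; edgeR adjusted p = 0.0182). Apln, which encodes the vascular and neuronal peptide apelin, fell to 0.684 of the saline level (28.7 ± 4.74 CPM after AC-T and 42.0 ± 1.99 CPM after saline, SD; edgeR adjusted p = 0.00686), with no overlap between the groups. The median log2 fold change of the 19 was 0.08. Leaving out single libraries gave 2 to 3 higher and 1 lower, and all alternatives together 0 to 3 higher and 0 to 1 lower. Npy lost its call in 7 of 31 alternatives, among them limma-voom with series as a random effect (adjusted p = 0.0631).

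Among 14 tested receptor and binding protein genes, 1 rose and 1 fell, beside shares of 4.89% and 3.58% over all genes tested. Crhbp, whose product binds and holds corticotropin-releasing hormone, rose 2.12-fold, with 22.5, 26.0, 20.7, 22.3 and 26.4 CPM in AC-T 501, 502, 503, 600 and 602 against 8.33, 10.8, 9.11, 13.9, 10.02 and 14.4 CPM in saline 201, 202, 203, 300, 301 and 302 (log2 1.09 ± 0.14, SE; edgeR adjusted p = 0.00203). The groups did not overlap, while those of its ligand gene Crh did. Adcyap1r1, a PACAP receptor gene, fell to 0.844 of saline (189 ± 20.7 CPM after AC-T and 224 ± 9.39 CPM after saline, SD, n = 5 and 6; edgeR adjusted p = 0.0449). That call ended on omission of any 1 of 9 libraries, with the highest edgeR adjusted p, 0.105, without AC-T 602, and with series as a random effect (limma adjusted p = 0.102). The 4 somatostatin receptor genes tested, Sstr1 to Sstr4, whose products cortistatin binds, did not pass, with log2 fold changes of 0.18 ± 0.27, 0.50 ± 0.19, 0.16 ± 0.13 and 0.66 ± 0.23 (SE). Neither did the opioid receptor genes Oprd1 (0.31 ± 0.14) and Oprl1 (−0.03 ± 0.11) or the tachykinin receptor genes Tacr1 (−2.16 ± 1.71) and Tacr3 (−0.48 ± 1.56). Vipr1 (0.32 ± 0.09) and Vipr2 (−1.23 ± 0.37), also on the list, lay in opposite directions and did not pass (edgeR adjusted p = 0.0584 and 0.0626). The mu and kappa opioid receptor genes, Oprm1 and Oprk1, did not pass the filter on low counts and were not tested. They were listed at 0 in 10 and 9 libraries.

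Of 20 genes for precursor processing and dense-core granules, 3 rose and 1 fell, with a median log2 fold change of 0.11. For all genes tested, 4.89% rose, 3.58% fell and the median was −0.003. Cadps2, a priming factor of granule release, rose 1.75-fold (70.2 ± 4.79 CPM after AC-T and 40.2 ± 10.2 CPM after saline, SD; edgeR adjusted p = 0.0130). Vgf, a granule protein and peptide precursor, rose 1.29-fold, and Ptprn2, a granule membrane protein, 1.24-fold (edgeR adjusted p = 0.0353 and 0.0363). Pcsk1n, which encodes an inhibitor of the convertase PC1, fell to 0.742 (edgeR adjusted p = 0.0363). The calls of Vgf, Ptprn2 and Pcsk1n each ended on omission of any 1 of 8 libraries, with highest adjusted p values of 0.0820, 0.0852 and 0.0863, and with series as a random effect (limma adjusted p = 0.0924, 0.137 and 0.140), where Cadps2 still passed (limma adjusted p = 0.0313). The convertase genes themselves did not pass, with log2 fold changes of 0.31 ± 0.24 for Pcsk1 and 0.19 ± 0.06 for Pcsk2 (SE; edgeR adjusted p = 0.476 and 0.0739). Of 10 tested peptide-degrading enzyme genes, Ece2, an endothelin-converting enzyme, fell to 0.705 of saline (edgeR adjusted p = 0.0130) and 0 rose.

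Cyclic AMP and CREB signalling genes were listed because CREB binds the element shown above. Its full form was found in the windows of Sst and Cartpt, and Cort held the shorter form alone. Of 17 tested, 4 rose and 0 fell: Camk4, a kinase that activates CREB, 1.33-fold, Crem, a CREB relative, 1.24-fold, Prkar2b, a regulatory subunit of protein kinase A, 1.17-fold, and Creb1 itself 1.14-fold (edgeR adjusted p = 0.0186, 0.0226, 0.0282 and 0.0388). The median log2 fold change of the list was 0.02. Over all genes tested 4.89% rose. On omission of 1 library the number of the list that rose ranged from 0 to 4, and with series as a random effect none of the 4 passed (limma adjusted p = 0.0787, 0.104, 0.0981 and 0.157). With the thalamic score as covariate none of the genes named from these lists passed in edgeR, in a fit where 1 of all genes did. In that fit the log2 fold change was 0.099 ± 0.271 for Cadps2, −0.031 ± 0.181 for Ece2 and 0.54 ± 0.267 for Crhbp (SE), against 0.80, −0.51 and 1.09 without it. Those of Vgf (0.75) and Camk4 (0.52) were larger than without it (0.37 and 0.41). The thalamic scores ran from 4.925 to 5.56 after AC-T and from 5.93 to 6.63 after saline, without overlap. The fit can therefore hardly tell score from treatment, and what the changed values reflect was not tested.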

How the data were processed

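RNA from hippocampal punches of 11 mice was made into stranded libraries of polyadenylated RNA. Per the submitters' processing notes and the series' design text, base calls were converted with Dragen 4.3.6, reads were checked with FastQC 0.11.9 and quantified with Salmon 1.9.0, and the build was GRCm39; the annotation release is not given in the sources used here. The deposited values are expected counts per gene, of which 13.7% to 14.7% per library had a fraction, and were rounded to whole numbers. Treatments were compared by edgeR 4.0.16 under R 4.3.3 (TMM scaling, filterByExpr with a minimum count of 10, quasi-likelihood F test, 2-sided, Benjamini-Hochberg adjustment over 15353 genes; common biological coefficient of variation 0.174). Each library is labelled as 1 mouse. The log2 CPM used a prior count of 2, and fold changes are AC-T over saline. Series were compared in a model with 4 group means.

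The genes and lists were chosen with earlier results of these data known. All 8 precursor genes were named whatever their values, with up to 4 genes past the threshold by smallest p from each pathway list, otherwise up to 2, up to 2 from marker lists set beside a precursor gene, and the 2 genes nearest in profile to a precursor gene past the threshold and to the one of widest range. Receptor, convertase and further marker genes outside this rule were named after their values were seen. Alternatives were other scaling, filters and thresholds, unrounded values, a robust fit, DESeq2 1.42.0, limma-voom (limma 3.58.1) without and with series as a random effect, marker scores as covariates, and omission of each library and series. Promoter windows come from RefSeq on GRCm38.p6, an older build than that of the counts, so gene positions are not given. The series states 6 samples per group, and 5 AC-T libraries were analysed here. A gene among the striatal markers is not reported here by name.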

Additional observations from a re-analysis of the deposited data

Results flagged for a closer look

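Within each group the highest and lowest library were compared with their neighbours in 52 sets of values by Dixon's rule, which flags about 1 in 20 groups by chance, and 3 stood apart. Tac2 was at 17.3 CPM in saline 300, where the other saline libraries were at 0.423 to 1.66 CPM. Crh was at 1.95 CPM in AC-T 501, with the other AC-T libraries at 0.988 to 1.11 CPM. Ptprn2 was at 125 CPM in saline 201, below the 153 to 161 CPM of the other saline libraries.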

How the results depend on the processing

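Cort passed in 27 of 29 alternative fits, with log2 fold changes of 0.58 to 0.90, and missed the threshold with the thalamic or the somatostatin-lineage score as covariate, where the number of precursor genes past the threshold was 0. That number was 2 without saline series 3 (Cort and Adcyap1), and 1 whichever single library was left out. The cause was not tested. Both scores were closely tied to treatment, as described above for Cort. Between AC-T series 6 and 5 the number was 0, and 0 to 1 on omission of single libraries. Over all genes 1301 passed. The count was 2559 with DESeq2, 293 with series as a random effect, 1 (Bmp3) with the thalamic score, 726 with the habenular and 143 with the somatostatin-lineage score as covariate, 317 with AC-T series 5 left out, 409 with AC-T series 6 left out, 549 with saline series 2 left out, 228 at an adjusted p under 0.01 and 2295 under 0.10. With single libraries left out it was 625 to 1229 (625 on omission of AC-T 502, 681 for AC-T 602, 815 for saline 202 and 832 for saline 300).

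Signs turned for genes that passed no test. Tac2 stood at 0.13 with limma-voom, 0.14 with series as a random effect, 0.96 with the habenular and 1.59 with the interneuron score as covariate, 0.79 without saline series 3, and −1.24 to 0.78 with single libraries left out. Crh stood at 0.75 with limma-voom, 0.71 with series as a random effect, 2.31 with the thalamic score, 1.05 without saline series 2, and −0.47 to 0.094 with single libraries left out. Penk was −0.45 with the thalamic score and −0.12 without AC-T series 6. Tac1 was −0.096 with the thalamic score, −0.20 without AC-T series 6, and −0.059 to 0.23 with single libraries left out. Pdyn was 0.10 with the interneuron score, 0.38 without AC-T series 5, 0.063 without saline series 3, and −0.18 to 0.065 with single libraries left out. Cartpt was −0.58 with the interneuron score, −0.096 without AC-T series 5, −0.12 without saline series 3, and −0.049 to 0.23 with single libraries left out. Of genes that passed, Ptprn2 was −0.078 with the thalamic score and Vgf −0.039 with the interneuron score. No paired analysis was possible because the AC-T and saline mice share no numbers.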
